A study of Mus musculus with 18 samples.

Results

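The 10 genes described here encode the machinery that shortens poly(A) tails of stored maternal mRNA in the mouse oocyte and the factors that work with it. They were chosen by name (Btg4, Cnot6l, Cnot6, Cnot7, Cnot8, Cnot1, Pan2, Pan3, Zfp36l2 and Tut7) from the 55291 genes of the count table, and all 10 were found there by symbol. RNA was sequenced from oocytes of 5-week-old mice that lacked VPS34, a lipid kinase of endosomes and autophagy that Pik3c3 encodes, and from control oocytes. ZcKO females were Vps34 floxed/floxed and carried Zp3-Cre, a transgene under the promoter of a zona pellucida gene that is active in growing oocytes. Control females were Vps34 floxed/floxed without Cre, so both genotypes carried the floxed gene. Metaphase II (MII) oocytes, ovulated and arrested in the second meiotic division, were collected at 14 h from the injection of hCG, which stands in for the ovulatory surge of luteinizing hormone. Germinal vesicle (GV) oocytes, fully grown and not yet resuming meiosis, were taken 46 h after PMSG, which stimulates follicle growth. The 4 groups (MII ZcKO, MII control, GV ZcKO and GV control) had 3 libraries each, and every library pooled 5 oocytes with ERCC spike-in RNAs. The series holds 18 samples in 6 groups, and the remaining 6, from 2-cell embryos, were left out (not analysed here).

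A growing oocyte stores mRNA that is translated after transcription has stopped, and much of this store is removed between meiotic resumption and the 2-cell stage. The CCR4-NOT complex removes poly(A) tails with a pair of nuclease types, the CCR4-type subunits CNOT6 and CNOT6L and the CAF1-type subunits CNOT7 and CNOT8, which are held by the scaffold CNOT1. BTG4 binds CNOT7 or CNOT8 and brings the complex to maternal mRNA during mouse oocyte maturation, ZFP36L2 brings it to mRNA with AU-rich elements, PAN2 and PAN3 form a separate deadenylase, and TUT7 adds uridines to mRNA whose tails are already short. Several mRNAs of this machinery are themselves stored with short tails and are translated once maturation begins, when CPEB1 on the cytoplasmic polyadenylation element (CPE) of the 3′ UTR promotes elongation of the tail.

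Because that element is read close to the poly(A) signal, the annotated 3′ ends of the 10 genes were searched for it. The last 100 bases of 1 transcript per gene (GENCODE M21, build GRCm38) were searched on the transcript strand for a CPE, spelled TTTTAT or TTTTAAT, and for the poly(A) signal AATAAA. The longer form of the CPE can overlap the poly(A) signal, as it does in Pan3. Cnot8 was not searched, because the annotated 3′ ends of its coding transcripts are marked incomplete. A CPE was found in 5 of the 9 genes searched, and 16.5% of the 21781 genes searched in the annotation had one. The signal AATAAA was found in 6 of the 9 genes, against 61.0% of the annotated genes searched, and both motifs in 3 of the 9, against 10.6%. Other spellings of the poly(A) signal were not searched, and the annotated genes were not limited to those expressed in oocytes. The windows below, of 30 bases each, show the motif matches of the genes that the results turn on, with the motifs in capitals.
Btg4: aaatccctTTTTATgtctttttaaaagttt
Cnot7: ttaaggtacaTTTTATatcAATAAAaatac
Pan3: gcagtattTTTTAATAAAgaattgcagaaa
Pan2: acagcatgTTTTATaaAATAAAagtatttt
Cnot1: tgtattgaTTTTATatatgtgagtacactg
Cnot6l: ttccctgtaggcAATAAAtggccattttgc
Tut7: tcatggtaaaaaAATAAAaatggtgaccat
These windows lie at chr9:51119801-51119830 on the + strand (Btg4), chr8:40493036-40493065 on the - strand (Cnot7), chr5:147548463-147548492 on the + strand (Pan3), chr10:128321309-128321338 on the + strand (Pan2), chr8:95719500-95719529 on the - strand (Cnot1), chr5:96070340-96070369 on the - strand (Cnot6l) and chr13:59771569-59771598 on the - strand (Tut7). All of them are in the 3′ UTR of the last exon. Btg4 had its CPE 67 bases before the annotated end and no AATAAA in the last 100 bases, whereas Cnot7 had the CPE 20 and AATAAA 11 bases before its end. Cnot6l, Zfp36l2 and Tut7 had AATAAA without a CPE, and Cnot6 had neither motif in this window. Exons of Cnot1, Cnot7, Tut7 and Zfp36l2 overlap those of other annotated genes, by 0.769 to 8.82% of the exonic length, and no source used here says whether counting used strand. A match describes the annotated sequence only, and the 3′ ends used in these oocytes were not measured.

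Gene counts per library ranged from 2609783 to 4696626. The ribosomal RNA gene model CT010467.1, which they include, held 11.1% of them in GV ZcKO replicate 1, the most, and 1.17% in GV ZcKO replicate 3, the least. These libraries also correlated least of all pairs within a group (Pearson's r = 0.921 by log2 CPM). ERCC reads made up 31.2 to 39.9% of counts in MII ZcKO, 29.3 to 35.1% in MII control, 7.09 to 13.7% in GV ZcKO and 10.3 to 18.7% in GV control libraries. The ratio of gene counts to ERCC counts was 4.49-fold lower at MII than at GV in ZcKO and 2.95-fold lower in control oocytes (log2 differences -2.17 and -1.56, two-sided exact permutation p = 0.1 each, the smallest that 3 against 3 libraries allow). ZcKO minus control, the log2 of that ratio was -0.20 at MII and 0.40 at GV (exact permutation p = 0.5 each). With 1 library left out these ranged from -0.32 to -0.0412 at MII and from 0.0895 to 0.62 at GV. All 10 oocyte markers were detected in all 12 libraries, and their summed level averaged 16591 CPM in MII ZcKO, 18862 in MII control, 30489 in GV ZcKO and 34890 in GV control libraries. Over maturation 6 of the 10 were called lower and 1 higher in ZcKO, and 5 lower and 0 higher in control (median log2 fold changes -0.81 and -0.80), and with ERCC scaling all 10 were lower in both. All 19 cumulus and granulosa markers were detected in at least 1 library, and their summed level was 939 to 1781 counts per 1000000 gene counts (CPM) in MII ZcKO, 1220.1 to 1553 in MII control, 349 to 601 in GV ZcKO and 421 to 525 in GV control libraries, most of it Serpine2. Without Serpine2 the sum was 682 CPM in MII ZcKO replicate 1, against 142 to 324 CPM in the other MII libraries, with 194 CPM of Tnfaip6 and 118 CPM of Fst in that library. Of 10 blood and immune markers 7 were detected, at a summed 3.33 to 7.60 CPM at MII and 48.8 to 78.6 CPM at GV, nearly all of it C1qb (3.33 to 7.60 CPM at MII and 47.3 to 78.6 CPM at GV), and the haemoglobin genes Hbb-bs and Hbb-bt were at 0. The part of these markers in the results below was not tested, and in pooled oocytes fewer oocytes cannot be told apart from less RNA per oocyte.

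Pik3c3, the deleted gene, had 5.36, 2.42 and 3.21 CPM in the MII ZcKO libraries, against 10.6, 21.4 and 17.1 CPM in MII control libraries. At GV it had 1.56, 1.65 and 2.67 CPM in ZcKO, against 35.5, 28.8 and 25.8 CPM in control libraries. The genotypes did not overlap at either stage. The log2 fold change (ZcKO minus control) was -2.19 (SE 0.39) at MII, with an adjusted p of 0.530 by edgeR (quasi-likelihood test, p-values adjusted by Benjamini and Hochberg over all genes tested), and -3.97 (SE 0.32) at GV, with an adjusted p of 1.5e-04. At MII the gene was called by DESeq2 (adjusted p = 0.0142) and by edgeR without the filter on low counts (adjusted p = 1.5e-04). Over maturation (MII minus GV) its change was 1.02 (SE 0.44, adjusted p = 0.0496 by edgeR) in ZcKO, which DESeq2 did not call (adjusted p = 0.0660) and ERCC scaling turned to -1.20, and -0.74 (SE 0.29, adjusted p = 0.0306 by edgeR) in control. The ZcKO libraries held 5 to 14 Pik3c3 counts each, and leaving out 1 library ended the ZcKO call for 8 of the 12 libraries and the control call for 4. The genotype of a column was read from a letter in its name (T for ZcKO, C for control), the titles use neither letter, and every genotype direction given here rests on that reading.

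Per transcript length, Btg4 was the most abundant of the 10 mRNAs in all 4 groups. Btg4 reached 3817 ± 31.2 CPM per kb in MII ZcKO, 4107 ± 577 in MII control, 2241 ± 483 in GV ZcKO and 2709.8 ± 182 in GV control oocytes (SD, n = 3 each). Cnot7, which encodes the CAF1-type nuclease bound by BTG4, was next in every group, at 441 ± 31.1, 457 ± 63.5, 159.8 ± 43.6 and 189 ± 38.7 CPM per kb in the same order of groups. In GV control oocytes the order then ran Cnot8 at 73.9 ± 9.39, Cnot6l at 41.0 ± 3.66, Pan3 at 24.7 ± 8.20, Pan2 at 19.4 ± 1.60, Cnot6 at 11.3 ± 0.284, Cnot1 at 10.4 ± 1.47, Tut7 at 3.98 ± 1.56 and Zfp36l2 at 0.472 ± 0.151 CPM per kb (SD, n = 3 each). There the ranges of Pan3 and Pan2, and of Cnot6 and Cnot1, overlapped, so these neighbours were not separated. At MII the scaffold Cnot1 ranked behind Tut7, at 8.71 ± 0.508 CPM per kb in ZcKO and 5.08 ± 3.15 in control oocytes, although their ranges overlapped in control. In MII ZcKO oocytes Pan3 came next after Cnot7, at 119 ± 30.8 CPM per kb, with a range that overlapped that of Cnot6l (99.2 ± 21.1), which in turn overlapped that of Cnot8 (85.6 ± 16.7). The length of 1 annotated transcript sets these values, and that of Cnot8, whose end is incomplete, is a lower limit.

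**Figure D1:**
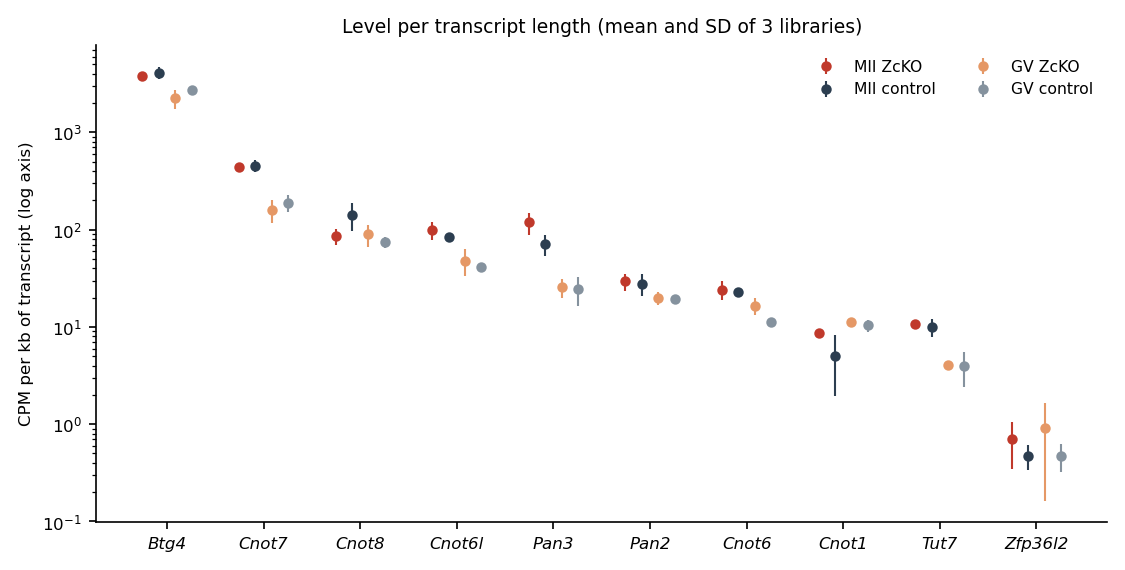
Level of each of the 10 mRNAs as CPM per kb of annotated transcript, on a log axis, in MII ZcKO, MII control, GV ZcKO and GV control oocytes. Points are means of 3 libraries and lines are SDs. Btg4 was highest and Zfp36l2 lowest in all 4 groups.

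As a share of the libraries' gene counts, most of this machinery was higher in MII than in GV oocytes, whereas with ERCC scaling none of it was called higher. Of the 10 genes, 7 were higher, 0 lower and 3 not called in ZcKO (Cnot8, Cnot1 and Zfp36l2), while 8 were higher, 1 lower (Cnot1) and 1 not called (Zfp36l2) in control oocytes, by edgeR with TMM scaling at an adjusted p under 0.05. Among all 11607 genes tested, 63.5% were called in ZcKO (29.5% higher and 34% lower) and 63.9% in control (30.1% higher and 33.8% lower). The median log2 fold change (MII minus GV) of the 10 genes was 0.81 in ZcKO and 1.13 in control, beside -0.04 and 0.01 over all genes tested. With the ERCC totals as library sizes, which scale each gene to the added spike-in, the direction turned: 0 of the 10 were higher in either genotype, and 7 were lower in ZcKO and 3 in control. On that scale 88.8% of all genes were called in ZcKO (0.801% higher and 88% lower) and 70.7% in control (0.56% higher and 70.1% lower), and the median over all genes moved to -2.37 in ZcKO and -1.72 in control. By CPM, all 3 MII libraries stood above all 3 GV libraries for 6 genes and below them for 1 in ZcKO, and for 8 and 1 in control, as compared with 65.3% of all genes that did not overlap in ZcKO (27.6% higher and 37.7% lower) and 67.3% in control (28.9% higher and 38.5% lower). Relative to the ERCC-scaled median 8 of the 10 genes stood above it in ZcKO and 9 in control.

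Btg4, the adaptor, had 5723, 5659.8 and 5633 CPM in MII ZcKO libraries, against 2519.8, 3885 and 3584 CPM in GV ZcKO libraries. In control oocytes it had 7093, 5591 and 5625 CPM at MII, against 4040.4, 3749 and 4291 CPM at GV. All MII libraries stood above all GV libraries in both genotypes. The log2 fold change was 0.92 (SE 0.19, adjusted p = 4.5e-04) in ZcKO and 0.75 (SE 0.19, adjusted p = 0.00226) in control by edgeR. Set against the spike-in the order of stages was the opposite, with 11.6, 12.5 and 8.50 Btg4 counts per 1000 ERCC counts in MII ZcKO, against 33.0, 28.9 and 22.5 in GV ZcKO. Control oocytes likewise had 13.1, 12.9 and 13.6 counts per 1000 ERCC counts at MII, against 17.6, 26.3 and 37.3 at GV. The ERCC-scaled log2 fold changes were -1.37 in ZcKO and -1.03 in control, which is 1.0 and 0.69 above the median of all genes on that scale.

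Cnot7 had the largest change among the nuclease subunits on the gene-count scale. Its level was 1274, 1251 and 1422 CPM in MII ZcKO, against 349.9, 469.8 and 609.9 CPM in GV ZcKO libraries. In control it was 1547, 1169 and 1368 CPM at MII, against 581, 442 and 671 CPM at GV. No MII library overlapped a GV library of its genotype. Its log2 fold change was 1.62 (SE 0.21, adjusted p = 3.3e-06) in ZcKO and 1.42 (SE 0.21, adjusted p = 1.3e-05) in control by edgeR. Per 1000 ERCC counts, Cnot7 stood at 2.58, 2.76 and 2.15 in MII ZcKO, against 4.58, 3.49 and 3.83 in GV ZcKO, and at 2.86, 2.70 and 3.31 in MII control, against 2.53, 3.10 and 5.84 in GV control libraries. With ERCC scaling the change was -0.67 in ZcKO and -0.37 in control, and neither was called.

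Cnot6l, a CCR4-type nuclease, had 790.1, 706 and 1053 CPM in MII ZcKO, against 507, 460.1 and 267 CPM in GV ZcKO libraries. Control oocytes had 672, 769 and 703 CPM of Cnot6l at MII, against 352, 382 and 319 CPM at GV. These groups did not overlap, and the log2 fold change was 1.18 (SE 0.24, adjusted p = 2.8e-04) in ZcKO and 1.16 (SE 0.24, adjusted p = 3.2e-04) in control by edgeR. Per 1000 ERCC counts, MII ZcKO libraries held 1.60, 1.56 and 1.59 Cnot6l counts, against 6.64, 3.42 and 1.68 in GV ZcKO, a wide spread at GV. ERCC scaling gave -1.30 in ZcKO, which was called lower, and -0.57 in control, which was not.

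Cnot6, the other CCR4-type nuclease, had 67.8, 44.8 and 68.1 CPM in MII ZcKO, against 43.9, 47.9 and 32.3 CPM in GV ZcKO libraries, and these overlapped. In control it had 56.2, 54.6 and 59.2 CPM at MII, against 29.1, 27.7 and 28.1 CPM at GV, with no overlap and little spread. Cnot6 had a log2 fold change of 0.67 (SE 0.23, adjusted p = 0.0143) in ZcKO and 1.14 (SE 0.23, adjusted p = 2.7e-04) in control by edgeR. The ZcKO call was lost without GV ZcKO replicate 3 (0.49, adjusted p = 0.0684), without MII ZcKO replicate 3 (0.53, adjusted p = 0.0714) and without the filter on low counts (0.61, adjusted p = 0.0550). ERCC scaling gave -1.73 in ZcKO, called lower, and -0.60 in control, not called.

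Cnot8, the second CAF1-type nuclease, was called higher at MII in control and not in ZcKO oocytes. It had 189, 209 and 141 CPM in MII ZcKO, against 154, 166 and 243 CPM in GV ZcKO libraries, and these overlapped. Control oocytes had 397, 205 and 294 CPM at MII, against 162, 133 and 171 CPM at GV, with no overlap. The log2 fold change was 0.09 (SE 0.24, 95% interval -0.42 to 0.59, adjusted p = 0.771) in ZcKO and 1.11 (SE 0.24, adjusted p = 6.1e-04) in control by edgeR. The difference of these changes, the interaction, was -1.02 (SE 0.34, unadjusted p = 0.00733, adjusted p = 0.875 by edgeR) and was not called. Per 1000 ERCC counts, Cnot8 stood at 0.384, 0.461 and 0.212 in MII ZcKO, against 2.01, 1.23 and 1.53 in GV ZcKO, and at 0.734, 0.473 and 0.711 in MII control, against 0.704, 0.932 and 1.48 in GV control libraries. The stages overlapped in control only. With ERCC scaling Cnot8 was at -2.17 in ZcKO, called lower, and at -0.70 in control, not called.

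Cnot1, the scaffold that holds the nucleases, was called lower at MII in control and not in ZcKO oocytes. Its level was 76.3, 74.2 and 68.1 CPM in MII ZcKO, against 88.0, 98.1 and 96.3 CPM in GV ZcKO libraries, without overlap. In control it was 13.4, 64.6 and 49.4 CPM at MII, against 101, 77 and 83.5 CPM at GV, also without overlap. One MII control library, replicate 1, held only 49 Cnot1 counts and stood apart from the others. The log2 fold change was -0.23 (SE 0.31, 95% interval -0.88 to 0.42, adjusted p = 0.535) in ZcKO and -0.93 (SE 0.32, adjusted p = 0.0156) in control by edgeR. The difference of these changes, the interaction, was 0.70 (SE 0.44, unadjusted p = 0.131, adjusted p = 0.875 by edgeR) and was not called. With ERCC scaling the interaction was -0.0172. Without MII control replicate 1 the control value was -0.52 and still called (adjusted p = 0.0269). Cnot1 was the only one of the 10 genes whose control change was below 0 on the gene-count scale, and it was called lower in both genotypes with ERCC scaling (-2.56 in ZcKO and -2.54 in control).

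**Figure D2:**
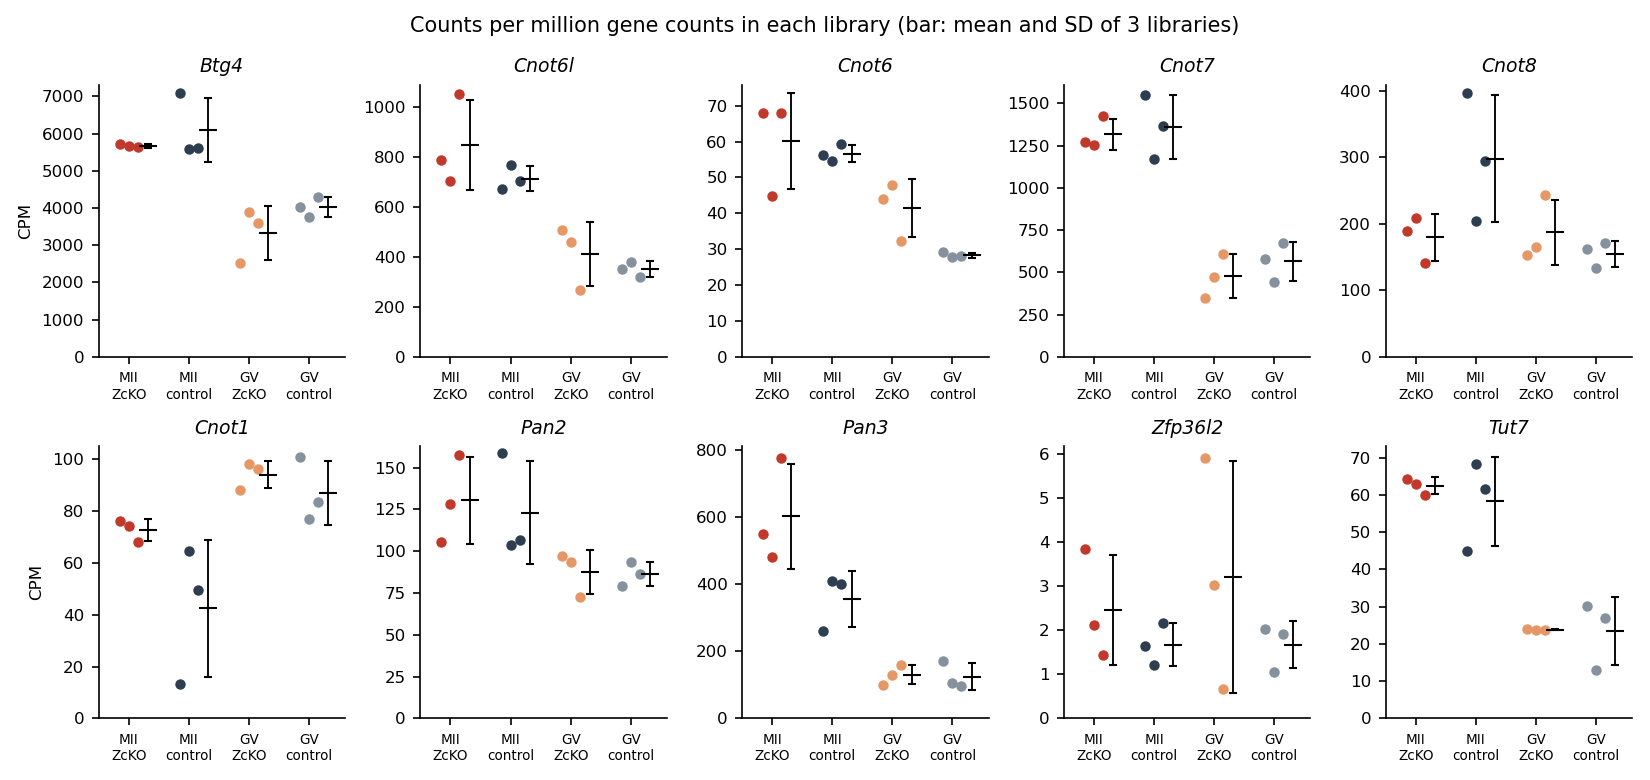
CPM of each of the 10 genes in all 12 libraries, with MII ZcKO, MII control, GV ZcKO and GV control from left to right in each panel, and the mean and SD of 3 libraries beside the points. On this scale Btg4, Cnot6l, Cnot7, Pan2, Pan3 and Tut7 were higher in every MII library than in any GV library of the same genotype, while with ERCC scaling none of the 10 was called higher. Cnot1 was lower in every MII library than in any GV library of its genotype.

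The other deadenylase was represented by its nuclease PAN2 and by PAN3, which binds RNA and recruits PAN2. Pan3 had 548, 480.1 and 777 CPM in MII ZcKO, against 101, 130.3 and 159 CPM in GV ZcKO libraries. Control oocytes had 261, 411 and 400.0 CPM of Pan3 at MII, against 172, 107 and 95 CPM at GV. Neither genotype overlapped between stages, and the log2 fold change was 2.37 (SE 0.25, adjusted p = 2.0e-07) in ZcKO and 1.66 (SE 0.24, adjusted p = 1.1e-05) in control by edgeR, the largest of the 10 in each genotype. Per 1000 ERCC counts, Pan3 was at 1.11, 1.06 and 1.17 in MII ZcKO, against 1.32, 0.969 and 0.997 in GV ZcKO libraries, and at 0.482, 0.949 and 0.967 in MII control, against 0.748, 0.747 and 0.826 in GV control. These ranges overlapped, and the ERCC-scaled change was 0.03 in ZcKO (SE 0.40) and 0.05 in control (SE 0.40), neither of them called, while the median gene on that scale was at -2.37 and -1.72. Pan2 had 105, 128 and 158 CPM in MII ZcKO, against 97.0, 93.7 and 72.6 CPM in GV ZcKO libraries. In control Pan2 had 159, 104 and 106 CPM at MII, against 79.1, 93.4 and 86.2 CPM at GV. The stages did not overlap but lay close, and the log2 fold change was 0.71 (SE 0.24, adjusted p = 0.0148) in ZcKO and 0.67 (SE 0.24, adjusted p = 0.0210) in control by edgeR. Leaving out GV ZcKO replicate 3 or MII ZcKO replicate 3 ended the ZcKO call (0.56, adjusted p = 0.0579, and 0.51, adjusted p = 0.0955, by edgeR). The control call ended without GV control replicate 1 (0.57, adjusted p = 0.0858), GV control replicate 3 (0.66, adjusted p = 0.0540) or MII control replicate 1 (0.37, adjusted p = 0.172). ERCC scaling turned Pan2 to -1.72 in ZcKO and -1.14 in control, both called lower.

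Tut7, the uridylyl transferase, had 64.4, 63.0 and 59.9 CPM in MII ZcKO, against 24.0, 23.7 and 23.7 CPM in GV ZcKO libraries. In control oocytes it had 45.0, 68.2 and 61.6 CPM at MII, against 30.1, 12.9 and 27.0 CPM at GV. Neither pair overlapped, and the log2 fold change was 1.53 (SE 0.25, adjusted p = 3.2e-05) in ZcKO and 1.46 (SE 0.25, adjusted p = 4.7e-05) in control by edgeR. Per 1000 ERCC counts, Tut7 stood at 0.131, 0.139 and 0.0903 in MII ZcKO, against 0.314, 0.176 and 0.149 in GV ZcKO, and at 0.0832, 0.158 and 0.149 in MII control, against 0.131, 0.0906 and 0.235 in GV control libraries. The ERCC-scaled changes were -0.81 in ZcKO and -0.23 in control, neither called. Zfp36l2, the AU-rich element adaptor, was near the limit of detection, with 10, 7 and 4 counts in MII ZcKO, 6, 4 and 8 in MII control, 19, 11 and 2 in GV ZcKO and 6, 4 and 9 in GV control libraries. Its log2 fold change was -0.29 (SE 0.63) in ZcKO and 0.16 (SE 0.68) in control, with 95% intervals of -1.60 to 1.02 and -1.26 to 1.58, so at this depth only large changes would have been detectable. With ERCC scaling it was at -2.72 (SE 0.75, adjusted p = 3.9e-04 by edgeR), called lower, in ZcKO and at -1.54 (SE 0.77, adjusted p = 0.0648), not called, in control, beside medians of all genes of -2.37 and -1.72. Beside these results, the counts cannot tell a change in the amount of an mRNA from a change in how well its poly(A) tail was captured. The cumulus and granulosa markers were also higher at MII by CPM, and were called higher in 10 of 13 tested in ZcKO and 8 of 13 in control, where 1 was called lower, while ERCC scaling called 4 higher and 3 lower in ZcKO, and 3 higher and 4 lower in control. Among all genes tested, TMM scaling called 29.5% higher in ZcKO and 30.1% in control. Of the 19 markers, 7 passed the filter in the GV genotype comparison and 12 in the MII one. Ptx3 and Tnfaip6 were at 0 CPM in all GV libraries, so they could only be called higher.

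**Figure D3:**
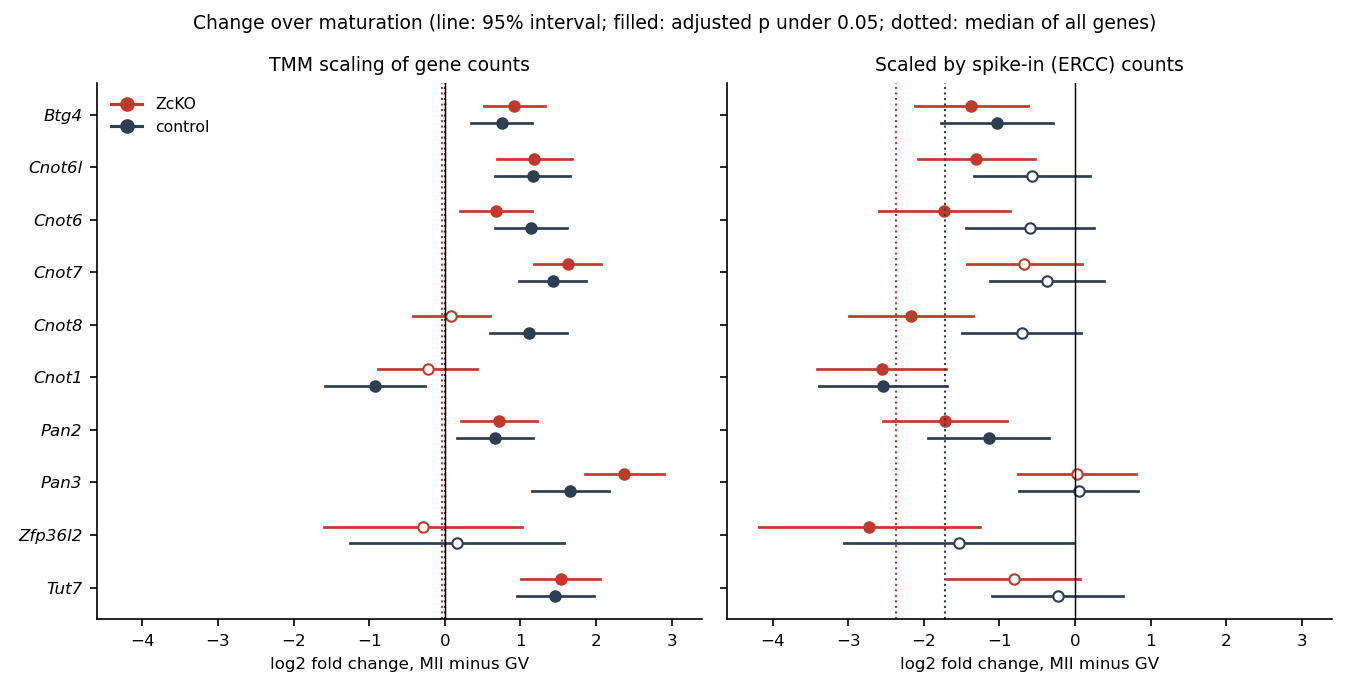
Log2 fold change of the 10 genes over maturation (MII minus GV) in ZcKO and control oocytes, with TMM scaling of gene counts on the left and ERCC totals as library sizes on the right. Lines are 95% intervals, filled points have an adjusted p under 0.05, and dotted lines mark the median of all genes. Pan3 was the highest of the 10 on both scales, and the 7 called higher in ZcKO on the left lay at or below 0.03 on the right.

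Between genotypes, none of the 9 genes tested was called at either stage, with Zfp36l2 left out by the filter on low counts. At MII 0% of all 9677 genes were called by edgeR, although 872 of these had an unadjusted p under 0.05 and DESeq2 called 4, and at GV 0.0825% of 10911 were called. Of the 9 genes, Pan3 and Cnot8 had an unadjusted p under 0.05 by edgeR at MII and Cnot6 at GV, where 240 of all genes tested did. DESeq2 called none of the 9 at either stage. Its unadjusted p was 0.0351 for Cnot1 at MII and 0.0530 for Cnot6 at GV. The 10 genes' median, over the 9 tested, was 0.05 at MII beside 0.02 over all genes, and 0.02 at GV beside 0.01. By CPM, 2 of the 10 genes at MII (Pan3 and Cnot1, both higher) and 1 at GV (Cnot6, higher) did not overlap between ZcKO and control, as compared with 15.8% of all genes tested at MII (8.19% higher) and 7.26% at GV (4.96% higher).

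The largest genotype differences among the 10 genes were at MII. Pan3, whose levels are given above, differed by 0.73 (SE 0.21, 95% interval 0.27 to 1.20, unadjusted p = 0.0053, adjusted p = 0.530 by edgeR), and all 3 ZcKO libraries stood above all 3 control libraries. It also did so per 1000 ERCC counts, at both stages. With ERCC scaling Pan3 differed by 0.48 at MII, beside a median of -0.15 over all genes. At GV it differed by 0.50, beside a median of 0.46, so there it lay near the median gene. On the TMM scale Pan3 was at 0.02 at GV. Cnot8 differed by -0.79 (SE 0.25, 95% interval -1.35 to -0.23, unadjusted p = 0.0107, adjusted p = 0.530 by edgeR), with overlap by CPM and none per 1000 ERCC counts, where Btg4 too was lower in every MII ZcKO than in any MII control library. The share of all genes that did not overlap per 1000 ERCC counts was not computed. Total gene counts also differed on that scale, by -0.20 at MII and 0.40 at GV (log2 ratio to ERCC counts, ZcKO minus control). Without the filter on low counts Pan3 and Cnot8 both passed (Pan3 at 0.70, adjusted p = 0.0168, and Cnot8 at -0.82, adjusted p = 0.00428 by edgeR). In that fit 96 of all 22572 genes were called. Without MII control replicate 1 Cnot8 was at -0.46, and without MII ZcKO replicate 3 Pan3 was at 0.48. Cnot1 was at 0.77 (SE 0.43, 95% interval -0.20 to 1.74), and at 0.37 without MII control replicate 1, the library with 49 counts. None of these was called in the filtered table under any library left out.

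For the other genes the differences at MII are given with 95% intervals. Btg4 was at -0.15 (-0.52 to 0.22) on the TMM scale and at -0.28 (-0.77 to 0.21) with ERCC scaling. On the TMM scale Cnot7 was at -0.09 (-0.46 to 0.28), Cnot6l at 0.22 (-0.16 to 0.60), Cnot6 at 0.05 (-0.41 to 0.51), Pan2 at 0.04 (-0.47 to 0.56) and Tut7 at 0.07 (-0.33 to 0.48). Without MII ZcKO replicate 3 Cnot6l was at 0.00420, and without MII ZcKO replicate 2 at 0.35. In GV oocytes Cnot6 was at 0.51 (SE 0.22, 95% interval 0.02 to 0.997, unadjusted p = 0.0425, adjusted p = 1.0 by edgeR), and each ZcKO library stood above each control library by CPM. Btg4 was at -0.33 (-0.75 to 0.09) and Cnot7 at -0.30 (-0.77 to 0.17) at GV, and the other 6 genes tested lay between -0.02 and 0.22. The interaction of genotype and stage called 0 of the 10 genes and 0.00862% of all genes, and after Cnot8 the smallest unadjusted p was that of Pan3, at 0.71 (SE 0.34, unadjusted p = 0.0479, adjusted p = 0.875 by edgeR).

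**Figure D4:**
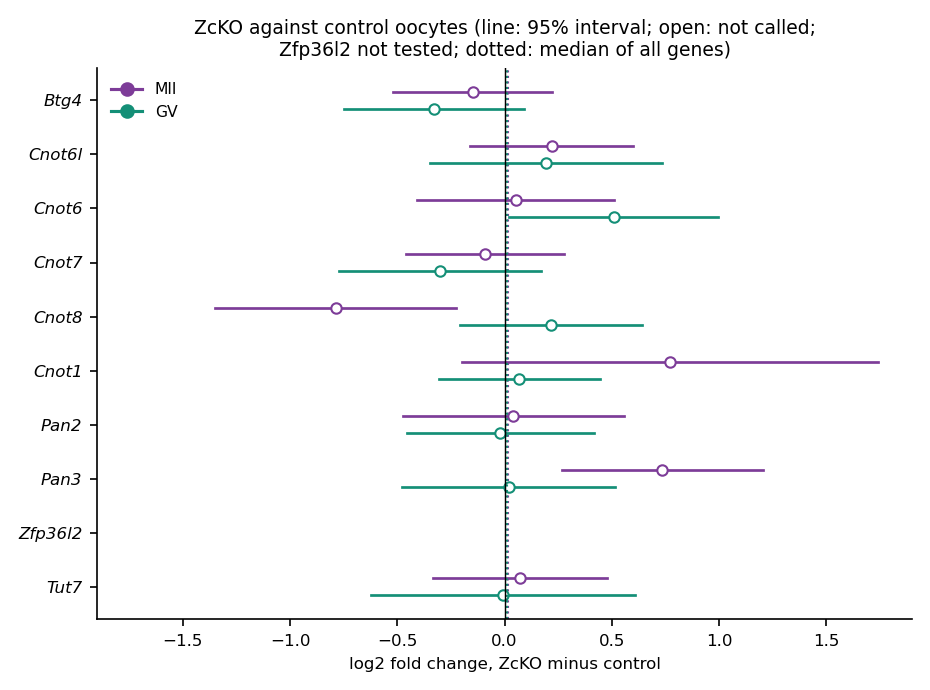
Log2 fold change of 9 of the 10 genes between ZcKO and control oocytes (ZcKO minus control) at MII and at GV, with 95% intervals, on the TMM scale. Zfp36l2 was not tested. All points are open because none was called. The intervals of Pan3 and Cnot8 at MII and of Cnot6 at GV did not include 0 before adjustment.

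The genes whose pattern over the 12 libraries was most like that of Btg4, by Pearson's r of log2(CPM + 1) among 11607 genes, were C130073F10Rik (0.980), Med27 (0.970), Hnmt (0.968), Rbbp7 (0.965) and Spin1 (0.965). These correlations are descriptive, since all 12 points share the stage difference. Spin1, which encodes the histone reader spindlin and is abundant in oocytes, averaged 13493 CPM in MII ZcKO, 14564 in MII control, 7251 in GV ZcKO and 7786 in GV control. Among the 10 genes Cnot7 was closest to Btg4 (0.951), then Tut7 (0.774) and Pan3 (0.770), and Cnot1 was the farthest (-0.653).

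On the TMM scale the wider decay pathway moved in both directions over maturation, and with ERCC scaling no gene of its 9 lists was called higher. All genes tested also split, with 29.5% called higher and 34% lower in ZcKO, and 30.1% and 33.8% in control. With ERCC scaling 0.801% of all genes were higher and 88% lower in ZcKO, and 0.56% and 70.1% in control. Whether any list departs from these shares was not tested. Of the 7 other CCR4-NOT subunits, 2 were called higher and 3 lower in ZcKO, and 1 higher and 2 lower in control, while with ERCC scaling 7 were lower in ZcKO and 6 in control. The log2 fold change (MII minus GV) of Cnot4, a ubiquitin ligase that associates with the complex, was 0.96 (SE 0.17) in ZcKO and 1.0 (SE 0.17) in control, against -1.41, called lower, and -0.75, not called, with ERCC scaling. Cnot10, of the module that binds the N-terminal part of CNOT1, was lower, at -2.14 (SE 0.27) in ZcKO and -2.42 (SE 0.27) in control, and averaged 11.4 ± 3.16 CPM in MII ZcKO, against 55.1 ± 5.83 CPM in GV ZcKO (SD, n = 3 each). Cnot9, which binds CNOT1 and several recruiting proteins, was at -1.36 (SE 0.27) and -1.18 (SE 0.26), and Cnot11 was at -1.04 (SE 0.28) in ZcKO, where it was called, and -0.32 (SE 0.27) in control, where it was not. The interaction of Cnot11 was -0.72 (SE 0.39, unadjusted p = 0.0774, adjusted p = 0.875 by edgeR) and was not called. These calls, and those of the lists that follow, are from edgeR with TMM scaling and an adjusted p under 0.05. A gene could enter this fit through 1 stage alone, and its call could then hardly go the other way.

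Among the 5 other BTG/TOB proteins, which bind the CAF1-type nucleases, 3 were higher and 1 lower in each genotype by TMM scaling, while with ERCC scaling 3 were lower in ZcKO and 2 in control. Btg1 was at 2.08 (SE 0.27) in ZcKO and 2.01 (SE 0.27) in control, and averaged 55.6 ± 7.06 CPM in MII ZcKO, against 14.5 ± 2.62 CPM in GV ZcKO (SD, n = 3 each). Btg3 was at 3.19 (SE 0.75) and 2.02 (SE 0.71) from under 1 CPM at GV, Btg2 at 0.79 and 0.88 (SE 0.26 each), and Tob1 at -1.46 (SE 0.40) and -1.72 (SE 0.41). In the GV genotype comparison 4 of these genes passed the filter, and in the MII one 5. Btg3 could hardly have been called lower. With ERCC scaling Btg1 was at -0.21 in ZcKO and 0.34 in control, Btg3 at 0.996 and 0.31 and Btg2 at -1.45 and -0.86, of which Btg2 in ZcKO alone was called, as lower. Of 5 genes tested from a list of other deadenylases and their relatives, 2 were higher and 1 lower in each genotype on the TMM scale, while with ERCC scaling 4 were lower in each. Deadenylase activity of their products was not measured, and the count is not one of active deadenylases. Parn was at -0.45 (SE 0.21) in ZcKO and -0.36 (SE 0.21) in control, neither called on the TMM scale. Angel2 was at 1.53 and 1.77 (SE 0.21 each) and Noct at 0.63 and 0.60 (SE 0.22 each), against -0.77 and -0.0212 for Angel2, not called, and -1.81 and -1.19 for Noct, both called lower, with ERCC scaling, while Pnldc1, which trims piRNA precursors, was at -3.91 (SE 0.51) in ZcKO and -3.57 (SE 0.48) in control.

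Adaptors that bring CCR4-NOT to mRNA were called higher in 6 of 15 tested and lower in 2 in ZcKO, and higher in 6 and lower in 1 in control, while with ERCC scaling 12 were lower in ZcKO and 8 in control. Of the 16 listed, 12 passed the filter in the GV genotype comparison and 15 in the MII one. Genes that passed through MII alone could hardly be called lower. Rc3h1, which binds stem-loop decay elements, was at 1.49 (SE 0.23) and 1.45 (SE 0.23), and its relative Rc3h2 at 1.27 (SE 0.50) and 1.60 (SE 0.46). ERCC scaling put Rc3h1 at -0.90 and -0.22 and Rc3h2 at -1.14 and -0.10, none of them called. Zfp36l1, a relative of Zfp36l2, was at 3.51 (SE 0.87) in ZcKO and 2.25 (SE 0.94) in control, and averaged 6.93 ± 6.61 CPM in MII ZcKO and 2.40 ± 1.43 in MII control (SD, n = 3 each). Its MII ZcKO libraries had 38, 10 and 9 counts, so replicate 1 holds most of that level, and every GV library had 5 counts or fewer, and with ERCC scaling it was at 1.23 in ZcKO and 0.55 in control, neither called. Pum2 was at 0.77 (SE 0.19) in ZcKO and 0.96 (SE 0.20) in control, both called, and with ERCC scaling at -1.62, called lower, and -0.79, not called.

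Poly(A)-binding proteins and cap partners were higher in 2 of 11 tested and lower in 4 in each genotype by TMM scaling, while with ERCC scaling 9 were lower in each. Paip1, which stimulates translation through the poly(A)-binding protein, was at 2.82 (SE 0.32) in ZcKO and 2.13 (SE 0.31) in control, against 0.60 and 0.49, not called, with ERCC scaling, and its antagonist Paip2 was at -2.27 (SE 0.20) and -2.57 (SE 0.20). Pabpc1l, the embryonic poly(A)-binding protein, was at -3.14 (SE 0.20) in ZcKO and -2.66 (SE 0.20) in control, and averaged 19.8 ± 3.09 CPM in MII ZcKO, against 193 ± 4.6 CPM in GV ZcKO (SD, n = 3 each). Terminal nucleotidyl transferases and poly(A) polymerases beside Tut7 were higher in 5 of 11 and lower in 3 in ZcKO, and 3 and 3 in control, while with ERCC scaling 9 were lower in ZcKO and 8 in control. Tut4, which encodes the paralog of TUT7, was at 1.91 (SE 0.65) in ZcKO, where the MII libraries had 47, 13 and 9 counts, and at 0.70 (SE 0.61), not called, in control. With ERCC scaling it was at -0.43 and -0.93, neither called. Tent2, a cytoplasmic poly(A) polymerase, was at 1.45 (SE 0.22) in ZcKO and 1.38 (SE 0.21) in control, both called, and with ERCC scaling at -0.86, called lower, and -0.40, not called. Tent5b was at -3.18 (SE 0.36) in ZcKO and -1.88 (SE 0.33) in control.

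Decapping and 5′-to-3′ decay genes split, with 7 of 17 tested higher and 5 lower in ZcKO, and 6 higher and 6 lower in control, while with ERCC scaling 16 were lower in ZcKO and 14 in control. The LSM ring genes Lsm3, Lsm4 and Lsm6 were at -2.55 (SE 0.21), -3.61 (SE 0.77) and -2.06 (SE 0.20) in ZcKO and at -2.20 (SE 0.20), -3.74 (SE 0.73) and -2.56 (SE 0.21) in control. Patl2, an oocyte PAT1 protein that binds mRNA, was at -3.08 (SE 0.28) and -2.05 (SE 0.26). Of the 3′-to-5′ exosome list, 3 of 17 were higher and 4 lower in ZcKO, 2 and 4 in control, while with ERCC scaling 17 were lower in ZcKO and 15 in control. Exosc5 and Exosc4, of the exosome ring, were at -3.86 (SE 0.32) and -3.10 (SE 0.25) in ZcKO and at -4.88 (SE 0.35) and -2.57 (SE 0.24) in control, and Ttc37, of the cytoplasmic SKI complex, was at 1.35 (SE 0.20) and 0.99 (SE 0.20), against -0.99, called lower, and -0.71, not called, with ERCC scaling. Among other regulators of maternal mRNA decay, 3 of 12 were higher and 6 lower in ZcKO, 3 and 7 in control, while with ERCC scaling 11 were lower in ZcKO and 10 in control. Zar1l and Ybx2, which encode RNA-binding proteins of the stored mRNA pool, were at -4.07 (SE 0.23) and -4.17 (SE 0.36) in ZcKO and at -4.40 (SE 0.23) and -3.83 (SE 0.35) in control. Cpeb4, a CPE-binding protein, was at 1.70 (SE 0.21) in ZcKO and 1.73 (SE 0.21) in control, both called, and with ERCC scaling at -0.68 and 0.0290, neither called.

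**Figure D5:**
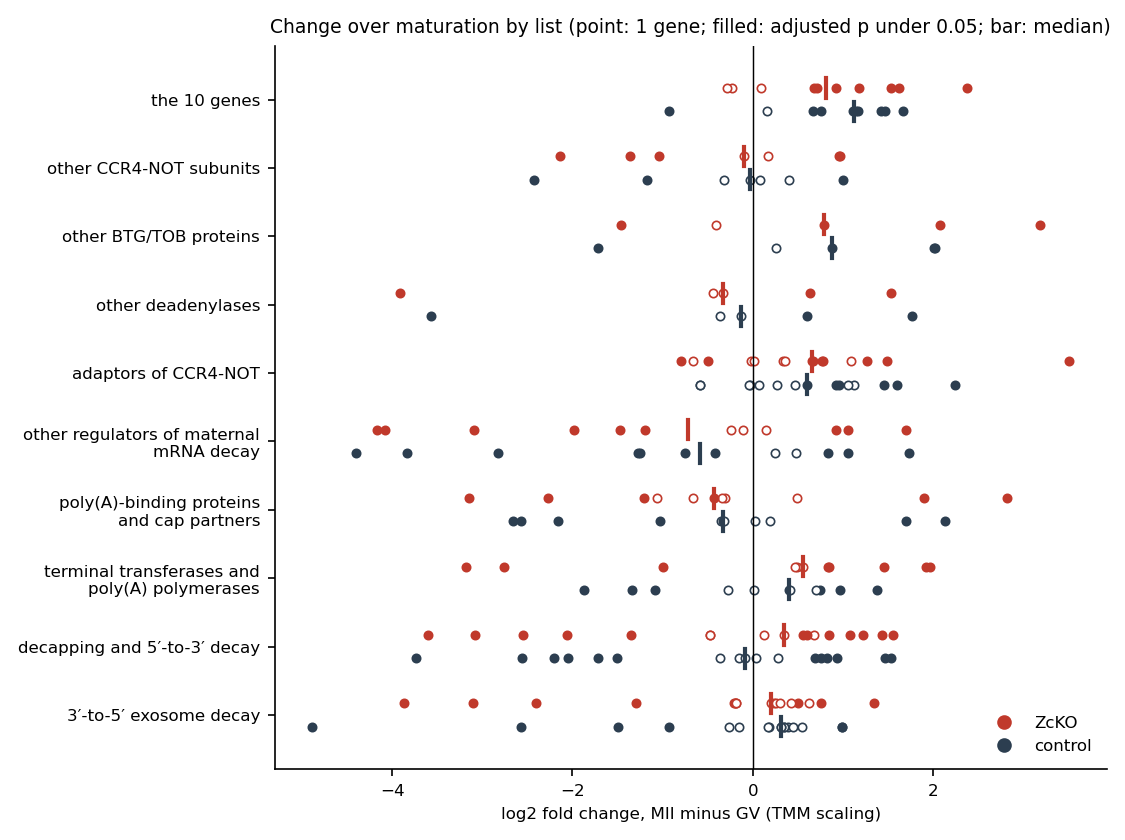
Log2 fold change over maturation (MII minus GV, TMM scaling) of every tested gene of the 10 genes and of 9 lists of the wider decay pathway, in ZcKO and control oocytes. Each point is 1 gene, filled where the adjusted p was under 0.05, and bars are medians. The 10 genes had medians of 0.81 in ZcKO and 1.13 in control on this scale, and medians of -1.54 and -0.65 with ERCC scaling.

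None of these 9 lists had a gene called between genotypes at either stage, or for the interaction, by edgeR. The smallest unadjusted p of a list gene at MII was that of Paip1, at 0.54 (SE 0.15, unadjusted p = 0.00426 and adjusted p = 0.530 by edgeR's fit across all genes). Paip1 averaged 3927 ± 355 CPM in MII ZcKO, against 2646 ± 331 CPM in MII control oocytes (SD, n = 3 each). Plk1, a mitotic kinase, was at -0.51 (SE 0.16), Mos, the kinase upstream of MAPK in oocytes, at -0.53 (SE 0.17), Skiv2l at -1.18 (SE 0.38), Ddx6 at 0.94 (SE 0.32), Lsm6 at 0.59 (SE 0.22) and Pabpn1l at -0.95 (SE 0.35). Cnot3 was at 0.41 (SE 0.18), Cnot11 at -0.28 (SE 0.19), Tob2 at -0.36 (SE 0.16), Btg3 at 0.65 (SE 0.46) and Angel2 at -0.27 (SE 0.16). Angel1 was at -0.34 (SE 0.29), Zfp36l1 at 1.47 (SE 0.69) and Caprin2 at 0.30 (SE 0.18). Tent4b was at 0.55 (SE 0.21), Tent5d at 1.27 (SE 0.52) and Exosc10 at -0.36 (SE 0.20). None of these was called, and list genes at GV are not named here.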

How the data were processed

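RNA of 5 pooled oocytes per library was reverse transcribed with Smart-seq2, with ERCC spike-ins, and made into KAPA HyperPlus libraries, per the labels' protocols. The deposited table holds read counts per gene, whole numbers that the authors did not normalize. Its 55383 rows are 92 ERCC RNAs and 55291 genes. fastp, HISAT2, featureCounts and build mm10 are named in the submitters' processing notes, and the sources used here give no version, annotation release, strand setting or treatment of multi-mapping reads. Of its 18 columns, 12 were matched to labels, and 6 matched none and were not used. C was read as control and T as ZcKO. Labels do not tie libraries to animals, so p-values measure the spread between these libraries.

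Genotypes were compared within a stage on 6 libraries, and stages and the interaction in 1 fit of 12, with edgeR 4.0.16 (R 4.3.3, limma 3.58.1) by its quasi-likelihood test, with TMM scaling, filterByExpr and Benjamini-Hochberg adjusted p under 0.05. ERCC totals replaced library sizes in 1 alternative, and counts per 1000 ERCC counts were added after seeing the data. Other alternatives were RLE scaling, DESeq2 1.42.0, no filter, a replicate block, other sets of libraries in the fit and each library left out. Tests were tested on simulated data. CPM uses gene counts, and python 3.11.15, numpy 2.4.6, pandas 2.3.3 and scipy 1.17.1 gave summaries, coordinates and exact tests. Lengths and 3′ ends come from GENCODE M21. The genes and lists were chosen with earlier results of these data known. Named are Pik3c3, the 10 genes, from each list and comparison up to 4 called genes with the largest changes (or, where none was called, up to 2 with the smallest p), and the 5 genes most like Btg4. Not every list gene that this rule picked is printed. Zfp36l2 did not pass the filter in either genotype comparison.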

Additional observations from a re-analysis of the deposited data

How the results depend on the processing

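Scaling to ERCC totals turned the sign of 30 log2 fold changes of Pik3c3 and the 10 genes. Over maturation in ZcKO it gave Pik3c3 -1.20, Btg4 -1.37, Cnot6l -1.30, Cnot6 -1.73, Cnot7 -0.67, Cnot8 -2.17, Pan2 -1.72 and Tut7 -0.81. In control it gave Btg4 -1.03, Cnot6l -0.57, Cnot6 -0.60, Cnot7 -0.37, Cnot8 -0.70, Pan2 -1.14, Zfp36l2 -1.54 and Tut7 -0.23, with 3 of the 10 genes called. Between genotypes it gave Cnot6 -0.14, Pan2 -0.11 and Tut7 -0.11 at MII, and Btg4 0.0566, Cnot7 0.0547, Pan2 0.47 and Tut7 0.47 at GV, and for the interaction Btg4 -0.34, Cnot6l -0.74, Cnot7 -0.30, Cnot1 -0.0172, Pan2 -0.57, Pan3 -0.0194 and Tut7 -0.58. The 9 genes called at GV became 3 with all 12 libraries in 1 fit, 28 without the filter and 2 to 10 with 1 library left out. The 0 called at MII became 4 with DESeq2 and 96 of 22572 genes without the filter, 2 of these 96 among the 10 genes. The 1 interaction call became 5 with DESeq2, 3 with ERCC totals, 18 without the filter and 0 to 3 with 1 library left out. The cause was not tested. With 1 library left out the ranges that include 0 were, at MII, Btg4 -0.25 to 0.0368, Cnot7 -0.23 to 0.0747, Cnot6 -0.0784 to 0.24, Pan2 -0.15 to 0.34 and Tut7 -0.0371 to 0.16, and at GV, Cnot6l -0.0242 to 0.45, Pan2 -0.14 to 0.13, Pan3 -0.14 to 0.27 and Tut7 -0.28 to 0.17. Over maturation they were Cnot8 -0.0264 to 0.27 and Zfp36l2 -0.78 to 0.49 in ZcKO and Zfp36l2 -0.0435 to 0.37 in control, and for the interaction Cnot6l -0.24 to 0.23, Pan2 -0.16 to 0.35, Zfp36l2 -0.93 to 0.34 and Tut7 -0.11 to 0.33. Of the 10 genes, 5 to 7 were called in ZcKO and 8 to 9 in control with 1 library left out.

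Deviations of same-numbered libraries correlated at -0.20 to -0.01 at MII and -0.30 to 0.28 at GV between genotypes. Between stages they correlated at -0.16 to -0.05 in ZcKO and -0.14 to 0.05 in control. Other-numbered libraries gave -0.20 to 0.27 at MII, -0.48 to 0.49 at GV, -0.06 to 0.14 in ZcKO and -0.11 to 0.11 in control. With 3 libraries per group these values cannot decide whether the numbers pair libraries, and the labels do not say. The replicate block gave 0 calls at MII, 11 at GV, 7233 over maturation in ZcKO, 7272 in control and 1 for the interaction, and put Tut7 at GV at 0.0516. At 2 to 19 counts per library, Zfp36l2 is limited by depth.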
